A study of Mus musculus with 9 samples.

Results

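The genes described here are 10 angiogenic and trophic growth factor genes, chosen by name: Vegfa, Vegfb, Vegfc and Pgf of the VEGF family, Pdgfa and Pdgfb of the PDGF family, Igf1, the FGF relatives Fgf11 and Fgf13, and Egfl7. All 10 were among the 24411 symbols of the deposited table, and 9 of them reached 1 TPM in at least 3 of 9 libraries and so were among the 11753 genes tested. Pgf was the member that did not reach that level. TPM is a transcript level corrected for transcript length and scaled to the same sum in every library, so levels of different genes can be set side by side. The libraries were made from mouse macrophages expanded by long-term culture of C57BL/6 cells in RPMI with 10% serum and 100 ng/mL M-CSF, the cytokine on which these cells depend. There were 3 lines from E9.5 yolk sac (YS lines), 3 from E14.5 fetal liver (FL lines) and 3 from adult bone marrow (BM lines), none of them treated or genetically modified. A line was a bulk culture grown from a separate dish or well, and the starting cells were pooled from several mice, so lines of a group may share donors and p-values measure the spread between lines only. The sequencing depth of the libraries is unknown, because TPM keeps no read numbers. Error was estimated from the spread between lines within the groups, in 1 model over all 9 libraries.

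VEGF ligands are secreted dimers that act on receptor tyrosine kinases of blood and lymphatic endothelium, with neuropilins as co-receptors. PDGF chains pair with each other and recruit mural and mesenchymal cells, and IGF1 is a trophic hormone that macrophages also make locally. Fgf11 and Fgf13 encode FGF homologous factors, which stay inside the cell and bind sodium channels rather than FGF receptors. Egfl7 encodes a secreted matrix protein best known from endothelium and is the host gene of the microRNA miR-126.

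Promoter sequence is shown for 3 members that were all higher in BM lines than in FL lines, Vegfc, Fgf11 and Vegfa, as the 250 bases before the RefSeq start site (GRCm38.p6, given 5′ to 3′ on the gene's strand). Capitals mark the GC box GGGCGG read on either strand. The Vegfc stretch is chr8:54077282-54077531 on the plus strand, the Fgf11 stretch chr11:69802281-69802530 on the minus strand, and the Vegfa stretch chr17:46032378-46032627 on the minus strand.
Vegfc: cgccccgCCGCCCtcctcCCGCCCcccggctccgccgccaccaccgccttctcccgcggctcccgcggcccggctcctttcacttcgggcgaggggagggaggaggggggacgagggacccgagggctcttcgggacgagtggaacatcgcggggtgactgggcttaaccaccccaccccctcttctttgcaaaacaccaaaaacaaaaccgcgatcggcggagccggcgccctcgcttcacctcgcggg
Fgf11: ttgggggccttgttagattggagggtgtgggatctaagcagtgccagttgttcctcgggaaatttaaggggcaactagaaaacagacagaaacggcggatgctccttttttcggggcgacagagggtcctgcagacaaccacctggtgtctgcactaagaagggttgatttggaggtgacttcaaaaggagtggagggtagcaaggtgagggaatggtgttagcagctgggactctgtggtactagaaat
Vegfa: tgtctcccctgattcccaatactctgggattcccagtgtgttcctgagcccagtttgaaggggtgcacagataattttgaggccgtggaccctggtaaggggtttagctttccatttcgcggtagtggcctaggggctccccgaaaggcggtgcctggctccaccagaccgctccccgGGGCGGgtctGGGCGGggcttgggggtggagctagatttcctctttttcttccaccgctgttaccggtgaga

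The Vegfc and Vegfa stretches held 2 GC boxes each and the Fgf11 stretch held 0, and their GC contents were 71.6%, 59.2% and 51.2%. RefSeq gave 17 promoter windows for 9 of the 10 members, some of them for the same gene, and 10 of the 17 held GGGCGG within the 250 bases before the start, against 32.7% of all 32851 promoters. The core of the hypoxia response element, ACGTG on either strand, was in 1 of the 17, a second start of Vegfa, against 16.6% of all promoters. The TATA box TATAAA was in 0 of the 17, against 12.4% of all promoters. These matches describe the letters of the windows and no binding was measured. The microRNA hosted by Egfl7, mmu-miR-126a-3p, lies at chr2:26591402-26591423 on the plus strand, and its seed, bases 2 to 8, is in capitals.
mmu-miR-126a-3p: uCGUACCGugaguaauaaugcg

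Across genes, the lines of a group correlated with a Pearson's r of 0.912 to 0.960 (YS), 0.947 to 0.963 (FL) and 0.975 to 0.985 (BM) on the log2(TPM + 1) scale. BM line 2 held transcripts that the other BM lines lacked: for 45 genes that reached 20 TPM in YS line 2 but stayed below 0.5 TPM in BM lines 1 and 3, its level was a median of 14.1% of that in YS line 2 (quartiles 10.7% and 17.7%). With each other YS or FL line in place of YS line 2, the median was 3.24% to 8.38%, and where these transcripts came from was not tested. For the reverse, with 22 genes, YS line 2 stood at a median of 0.409% of BM line 2. Values without YS line 2 and BM line 2 are given beside several results for members and receptors. All 10 macrophage markers examined were at 1.68 TPM or more in every line, but not all at like levels: 2 were called higher and 1 lower in YS than in BM lines, 3 higher in FL than in BM lines, and 2 lower in YS than in FL lines. Over all genes tested, 12.8%, 10.3% and 3.79% were called in the same order. Fcgr1 (4.65 and 4.02, adjusted p = 0.0076 and 0.014) and Aif1 (3.16 and 3.15, adjusted p = 0.0030 and 0.0026) were higher in YS and in FL lines than in BM lines, as differences of log2(TPM + 1). Of 14 endothelial markers, 9 were under 1 TPM in every line, and of these Emcn, Cldn5, Sox17 and Robo4 were listed at 0 in all 9 lines. The highest levels of Kdr, Vwf, Tie1, Pecam1 and Cdh5 in any line were 54.35, 44.83, 25.82, 8.17 and 1.38 TPM. Of 10 stromal markers 8 were under 1 TPM in every line. Hba-a1 was at 214.99 TPM in BM line 2 and at most 8.62 TPM in any other line.

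The members' transcripts differed in make-up more than in sum. Summed over the 10 genes, the levels were 334.83 to 402.90 TPM in YS lines, 323.62 to 344.97 TPM in FL lines and 297.10 to 371.30 TPM in BM lines. Igf1 made up 51.0% to 69.5% of that sum in YS lines and 56.1% to 65.4% in FL lines, but 7.24% to 22.2% in BM lines. In BM lines Pdgfb was the most abundant member, with 39.4% to 49.1% of the sum, against 10.3% to 29.6% in YS lines and 23.1% to 28.8% in FL lines. The Igf1 level was 1.74 to 6.76 times that of Pdgfb in YS lines, 1.95 to 2.83 times in FL lines and 0.148 to 0.563 times in BM lines.

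**Figure D1:**
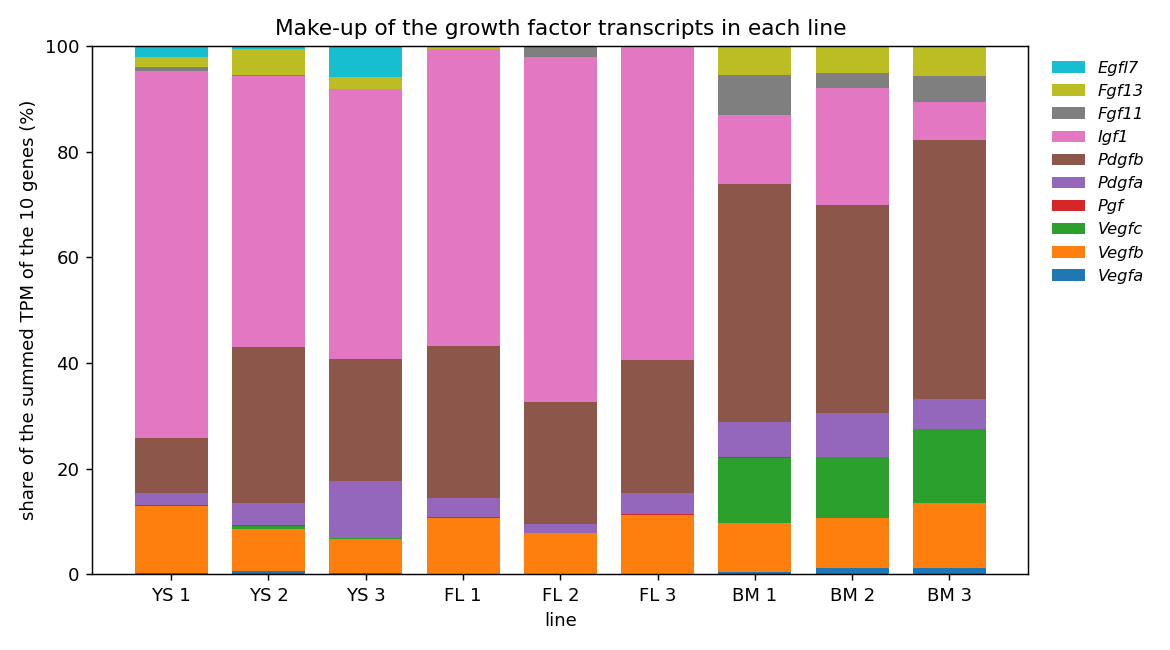
Share of each of the 10 genes in their summed TPM (vertical axis, %) in each of the 9 lines (horizontal axis). Igf1 holds at least 51.0% of the bar in all YS and FL lines, and Pdgfb is the largest part in all BM lines, where Vegfc adds 11.6% to 14.0%.

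Between YS and BM lines, 5 of the 9 members tested were called (limma, Benjamini-Hochberg FDR under 0.1 and more than 2-fold), 2 higher and 3 lower in YS lines, against 12.8% of all genes called (7.57% higher, 5.22% lower). Between FL and BM lines 5 of 9 were called, 1 higher and 4 lower in FL lines, against 10.3% of all genes (6.01% higher, 4.30% lower). Between YS and FL lines 2 of 9 were called, both higher in YS lines, against 3.79% of all genes (1.95% higher). The first pair of comparisons share the BM lines. Members whose lines did not overlap numbered 5, 7 and 3 in the same order, against 49.0%, 49.5% and 26.1% of all genes. Of these members 2, 1 and 3 were higher in the group named first, against 30.3%, 31.0% and 12.6% of all genes. The members' median absolute difference of log2(TPM + 1) was 1.08, 1.73 and 0.53, against 0.36, 0.30 and 0.27 over all genes tested. These counts are a description, since Vegfc, Fgf11, Vegfa and Egfl7 passed the filter only through the 1 group in which they were highest. For Vegfc, Fgf11 and Vegfa that group was the BM lines, and for Egfl7 the YS lines. Without YS line 2 and BM line 2 the counts were again 5, 5 and 2. In bulk RNA, fewer cells with a transcript and less of it per cell cannot be told apart.

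**Figure D2:**
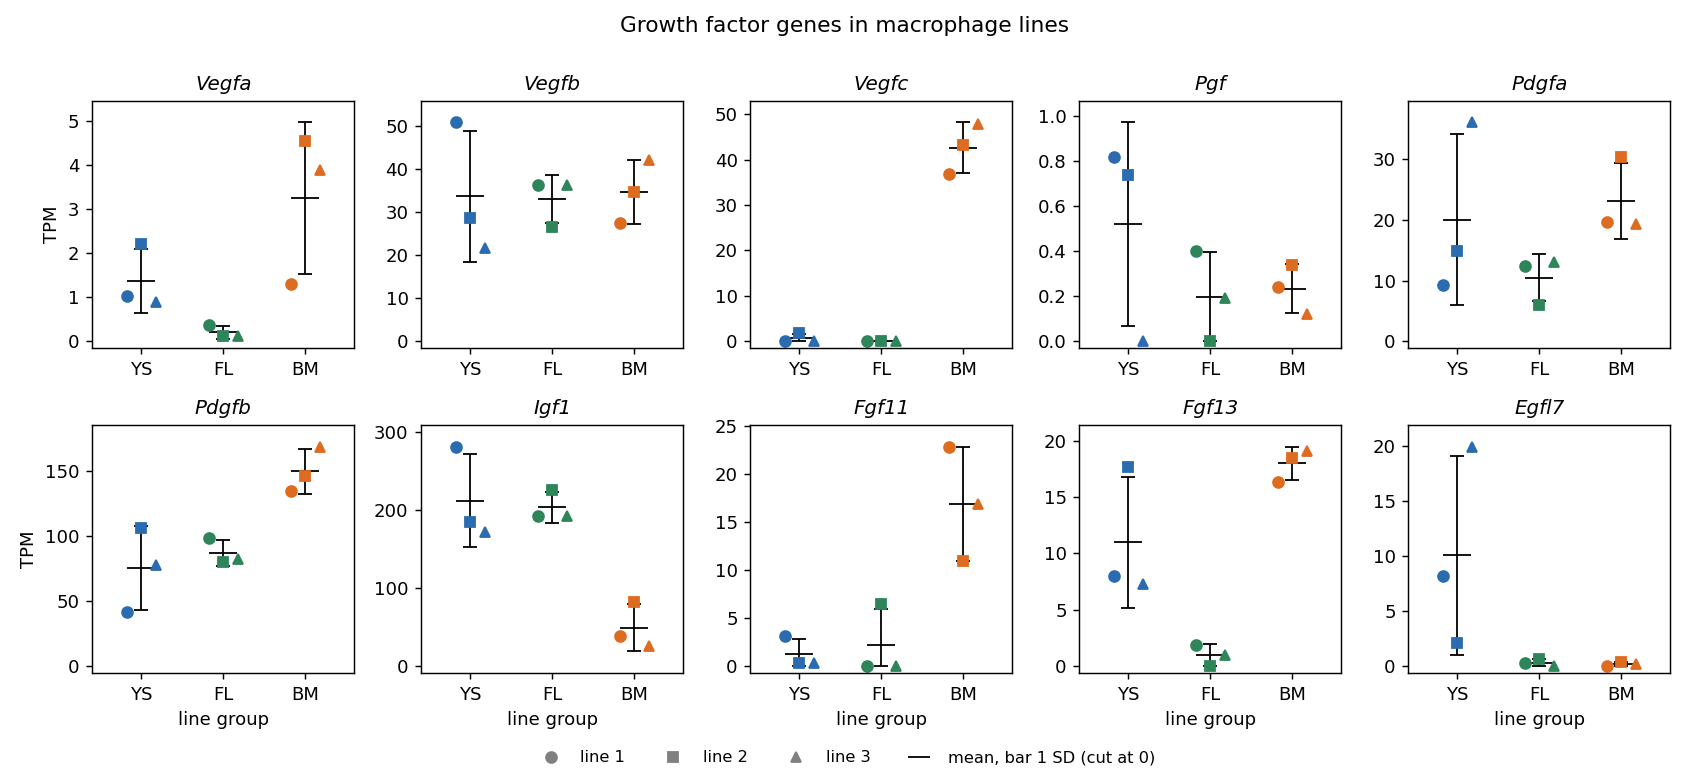
TPM (vertical axis, linear) of the 10 growth factor genes in 3 YS, 3 FL and 3 BM lines. Points are lines, horizontal marks the means and bars 1 SD, drawn down to 0 at most. Vegfc, Pdgfb and Fgf11 are highest in the 3 BM lines, Igf1 is lowest there, and Egfl7 is highest in the 3 YS lines.

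Vegfc, whose product acts mainly on lymphatic endothelium, had the largest difference of the 9 members tested in both comparisons with BM lines. The BM lines held 36.83, 43.13 and 47.95 TPM, the YS lines 0, 1.71 and 0.10 TPM, and each FL line was listed at 0. No YS or FL line came near the BM lines, whose mean was 42.6 ± 5.58 TPM (SD, n = 3) and higher than that of 65.4% of the genes tested. The difference of log2(TPM + 1) between YS and BM lines was -4.91 ± 0.35 (SE, adjusted p = 0.00019), and the FL to BM difference had an adjusted p of 0.0001, with no fold given against a gene listed at 0. YS line 2, the YS line with the most Vegfc, held 3.96% of the level in BM line 2. Without these 2 lines the YS to BM difference was -5.36.

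Vegfa, the main driver of blood vessel growth and a target of hypoxia-inducible factors, was low in every line. The BM lines had 1.3, 4.56 and 3.90 TPM. The YS lines had 1.03, 2.21 and 0.89 TPM, and the FL lines 0.37, 0.12 and 0.12 TPM. FL lines lay below all others. The FL to BM difference was -1.73 ± 0.37 (adjusted p = 0.013), and with a pseudocount of 4 it was -0.76 and no longer 2-fold. The YS to BM difference was -0.78 ± 0.37 (adjusted p = 0.146) with overlapping lines. It passed both thresholds without YS line 2 (-1.02, adjusted p = 0.099) without BM line 1 (-1.18, adjusted p = 0.049) or with quantile normalization (-1.05, adjusted p = 0.052). Without YS line 2 and BM line 2 together it was -0.78 (adjusted p = 0.247), and the FL to BM difference -1.49 (adjusted p = 0.058). YS lines did not overlap FL lines, but that difference, 0.95 ± 0.37, was not called (adjusted p = 0.158) except with a pseudocount of 0.1 (2.28, adjusted p = 0.074).

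Vegfb, which binds Flt1 and is linked to fatty acid handling and cell survival more than to vessel growth, had the smallest difference of the 9 members in both comparisons with BM lines. Its levels were 50.94, 28.61 and 21.76 TPM (YS), 36.27, 26.57 and 36.30 TPM (FL) and 27.45, 34.62 and 42.23 TPM (BM). The 3 groups overlapped throughout. The differences from BM lines were -0.11 ± 0.30 for YS lines and -0.06 ± 0.30 for FL lines (adjusted p = 0.81 and 0.90). Vegfb lies on chromosome 19, and the other 425 tested genes of that chromosome had median differences of -0.53 (quartiles -0.86 and -0.22) for YS against BM lines and -0.80 (quartiles -1.02 and -0.45) for FL against BM lines. Genes of the other chromosomes had medians of 0.12 and 0.11. Vegfb thus lay above 80.5% and 86.1% of the genes of its own chromosome in the 2 comparisons, close to the centre of the genes of the other chromosomes. No other tested member lay on chromosome 19.

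**Figure D3:**
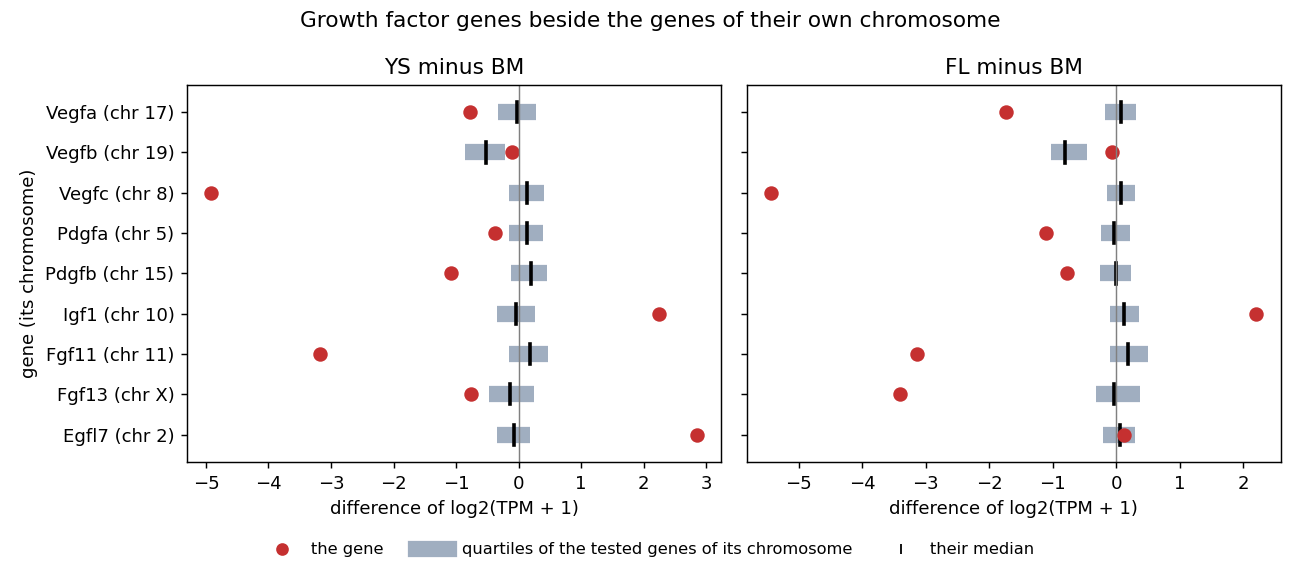
Difference of log2(TPM + 1) from BM lines (horizontal axis) of each tested member (red points), beside the quartiles (grey bars) and median (black mark) of the other tested genes of its chromosome, for YS lines (left) and FL lines (right). The bar of chromosome 19 lies left of 0 and Vegfb lies to its right, and the points of Vegfc, Igf1 and Fgf11 are far from their bars in both panels.

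Pgf, a ligand of Flt1, was at 0.82 TPM or less in every line and was not tested. The YS lines had 0.82, 0.74 and 0 TPM, the FL lines 0.40, 0 and 0.19 TPM, and the BM lines 0.24, 0.34 and 0.12 TPM.

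Pdgfb, a mitogen for mural and mesenchymal cells, was highest in the BM lines, at 134.09, 146.23 and 168.10 TPM. YS lines had 41.44, 105.87 and 77.65 TPM and FL lines 98.37, 79.78 and 81.76 TPM, and neither group overlapped the BM lines. The YS to BM difference was -1.08 ± 0.29 (adjusted p = 0.027) and the FL to BM difference -0.78 ± 0.29 (adjusted p = 0.097), the latter under 2-fold. The YS call rested on YS line 1, the lowest line: without it the difference was -0.71 (adjusted p = 0.021), and without BM line 3 it was -0.99 (adjusted p = 0.096), both under 2-fold. Platelets are a known source of this ligand, and of 8 megakaryocyte markers only Pf4 was tested, which was higher in YS and in FL lines than in BM lines (2.63 and 3.43, adjusted p = 0.077 and 0.041). The summed markers, mostly Pf4, were 230.88 to 2125.32 TPM in YS lines, 616.05 to 1729.93 TPM in FL lines and 39.37 to 393.62 TPM in BM lines, in the direction opposite to Pdgfb.

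Pdgfa, the other classical PDGF chain, was less abundant, with 9.30, 14.82 and 36.10 TPM (YS), 12.45, 6.00 and 13.02 TPM (FL) and 19.62, 30.31 and 19.40 TPM (BM). FL lines lay below BM lines without overlap, with a difference of -1.11 ± 0.46 that was not called (adjusted p = 0.132). It passed both thresholds when YS line 1 (adjusted p = 0.072) or YS line 3 (adjusted p = 0.044) was left out of the shared estimate of the spread, and when only the 6 FL and BM libraries were fitted (adjusted p = 0.040). YS lines spanned both other groups, 3.88-fold from lowest to highest. In every line Pdgfb exceeded Pdgfa, by 2.15 to 7.14 times in YS lines, 6.28 to 13.3 times in FL lines and 4.82 to 8.67 times in BM lines.

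Igf1 was the most abundant member in all YS and FL lines. YS lines reached 280.15, 183.64 and 170.89 TPM and FL lines 191.87, 225.43 and 191.24 TPM, against 38.46, 82.35 and 24.81 TPM for BM lines. Both embryonic groups lay above the BM lines without overlap. On the log2(TPM + 1) scale YS lines were 2.24 ± 0.38 and FL lines 2.21 ± 0.38 higher than BM lines, or 4.72-fold and 4.62-fold (adjusted p = 0.0053 in both). YS and FL lines differed by 0.03 ± 0.38 (adjusted p = 0.97). BM line 2 had the most Igf1 of the BM lines. Without YS line 2 and BM line 2 the differences were 2.78 and 2.67. The macrophage markers Fcgr1 and Aif1 were called higher, as Igf1 was, in both comparisons with BM lines, and no other marker was. Mertk was called higher in FL lines only (1.99, adjusted p = 0.0059), and Lyz2 was called lower in YS lines (-1.60, adjusted p = 0.054). Csf1r, Adgre1, Itgam, Cd68, Cd14 and Spi1 were not called against BM lines. The part of such differences in the Igf1 result was not tested. The BM lines varied most, 3.32-fold from lowest to highest, against 1.64-fold in YS and 1.18-fold in FL lines.

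Fgf11 reached 22.78, 10.91 and 16.90 TPM in the BM lines. YS lines had 3.07, 0.30 and 0.28 TPM, and FL lines 0, 6.48 and 0 TPM. BM lines lay above every other line, and FL line 2 was the only other line above 3.07 TPM. The differences from BM lines were -3.18 ± 0.80 for YS lines and -3.13 ± 0.80 for FL lines (adjusted p = 0.021 and 0.026). Without FL line 2 the FL lines were listed at 0. With no filter on low values the FL call was lost (adjusted p = 0.11).

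Fgf13, the other FGF homologous factor, was lowest in FL lines. BM lines had 16.33, 18.47 and 19.11 TPM, YS lines 7.97, 17.69 and 7.27 TPM, and FL lines 1.88, 0 and 0.99 TPM. FL lines did not overlap either other group. They were lower than BM lines by a difference of -3.40 ± 0.42 (adjusted p = 0.0015), and YS lines were 2.64 ± 0.42 higher than FL lines (adjusted p = 0.020). YS lines overlapped BM lines through YS line 2, and their difference of -0.76 ± 0.42 was not called (adjusted p = 0.20). Without YS line 2 it was -1.14 and was called (adjusted p = 0.074), and without YS line 2 and BM line 2 it was -1.12 and was not (adjusted p = 0.156). The YS to FL call was lost when only the 6 libraries of those groups were fitted (adjusted p = 0.113).

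Egfl7 reached 8.18, 2.03 and 19.89 TPM in the YS lines. In FL lines it was at 0.29, 0.59 and 0 TPM, and in BM lines at 0, 0.38 and 0.13 TPM. All YS lines lay above all FL and BM lines, and they differed 9.80-fold among themselves. YS lines were 2.85 ± 0.60 higher than BM lines (adjusted p = 0.011) and 2.72 ± 0.60 higher than FL lines (adjusted p = 0.047). The second call was lost without FL line 2 (2.88, adjusted p = 0.108) or FL line 3 (2.54, adjusted p = 0.139), with no filter on low values, and with only the 6 libraries (adjusted p = 0.165). Without YS line 2 and BM line 2 the differences from BM and FL lines were 3.70 and 3.45 (adjusted p = 0.0070 and 0.026). The difference from BM lines was 3.58 without YS line 2 and 2.19 without YS line 3, and that from FL lines 3.45 and 2.05, all of them called. FL and BM lines differed by 0.13 ± 0.60 (adjusted p = 0.90).

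Since Egfl7 is known from endothelium, the endothelial markers were set beside it. Only 4 of the 14 reached 1 TPM in 3 lines, and 9 were under 1 TPM in every line. Summed, they were 34.32 to 67.82 TPM in YS lines, 22.50 to 94.59 TPM in FL lines and 41.33 to 45.25 TPM in BM lines, most of it Kdr and Vwf except in YS line 1. For the defining marker Cdh5 the YS lines had 0.14, 0.87 and 1.36 TPM, the FL lines 1.26 to 1.38 TPM and the BM lines at most 0.28 TPM, and Tek did not exceed 0.04 TPM. Pecam1 was at 4.91, 8.17 and 0.29 TPM and Tie1 at 25.82, 4.99 and 0 TPM in the YS lines, both lowest in YS line 3, the line with the most Egfl7. Kdr, at 0.29, 16.08 and 54.35 TPM, Cdh5 and the sum of the list were instead highest in YS line 3 among the YS lines. Vwf moved opposite to Egfl7 between YS and BM lines, with a called difference of -2.29 (adjusted p = 0.071). It ranged from 37.6 to 44.83 TPM across BM lines, while no YS line exceeded 13.68 TPM. Of the 4 tested markers, Kdr was called in that comparison too, but as higher in YS lines (3.07, adjusted p = 0.081). The megakaryocyte marker Gp9 reached 3.78, 0.60 and 1.17 TPM in the YS lines but was listed at 0 in the other 6 lines. The part of other cells in the Egfl7 level was not tested. Poly(A) libraries do not measure mature microRNA, so there is no level of miR-126 beside that of its host gene.

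**Figure D4:**
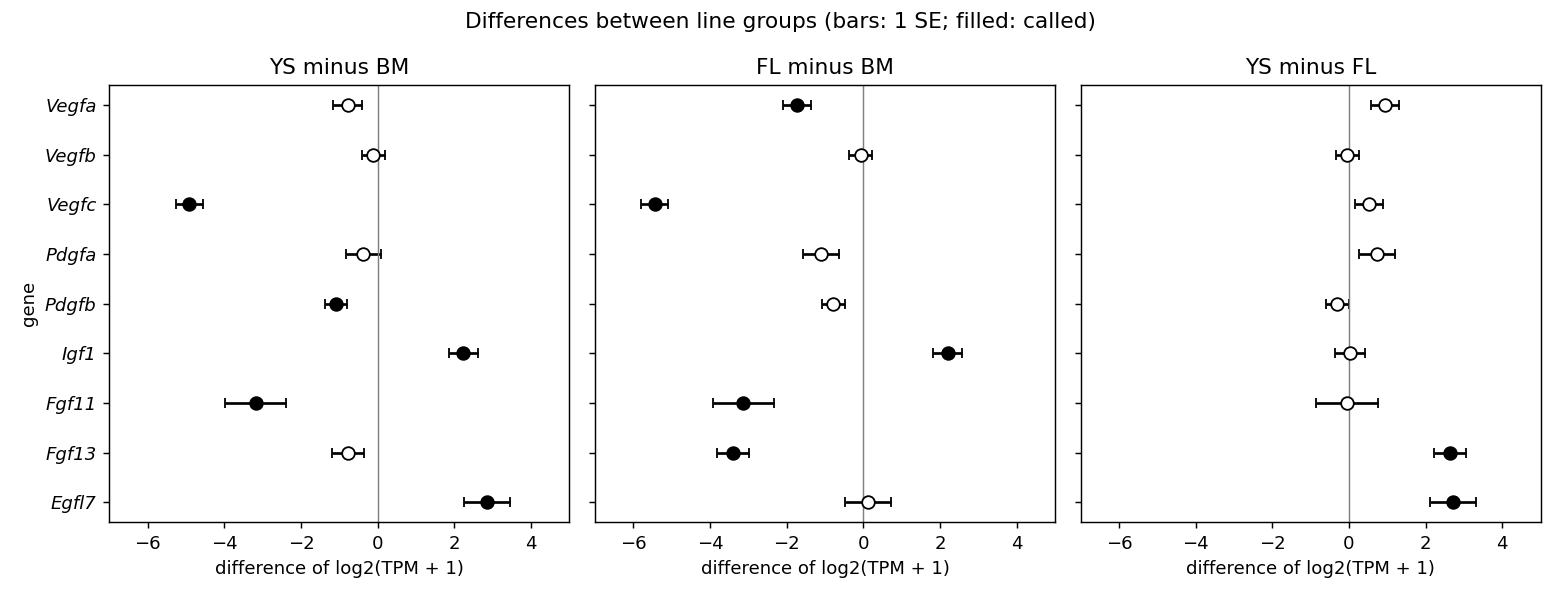
Difference of log2(TPM + 1) (horizontal axis) of the 9 tested members in 3 comparisons, with bars of 1 SE. Filled points were called. Vegfc, Fgf11 and Pdgfb lie left of 0 in both comparisons with BM lines and Igf1 lies right of 0, while Fgf13 and Egfl7 are the called genes between YS and FL lines.

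Of the 5 VEGF receptors and co-receptors, the neuropilins Nrp1 and Nrp2 were the most abundant, at 140.28 to 238.95 TPM and 181.19 to 332.22 TPM across all 9 lines. Neither was called in any comparison, but 1 difference of each passed the FDR at under 2-fold, without overlap. Nrp2 was lower in YS than in BM lines (-0.49, adjusted p = 0.041), and Nrp1 was higher in FL than in BM lines (0.51, adjusted p = 0.078). Flt1, the receptor of Vegfa, Vegfb and Pgf, was at 4.77 to 25.29 TPM and was not called either. Kdr, the main signalling receptor of Vegfa, had 0.29, 16.08 and 54.35 TPM in the YS lines, and 17.37, 17.47 and 50.36 TPM in the FL lines. The BM lines had 0.03, 0.86 and 0.08 TPM. FL lines lay above all BM lines (4.35 ± 1.16, adjusted p = 0.032). The YS difference, 3.07 ± 1.16 (adjusted p = 0.081), came with overlapping lines, because YS line 1 stood with the BM lines. It was no longer called with no filter, with only the 6 libraries of the 2 groups, without YS line 2 or YS line 3, without FL line 1, without any 1 BM line, or without YS line 2 and BM line 2 together, and the FL call was lost with no filter and without BM line 1 or BM line 3. Flt4, the receptor of Vegfc, was at 16.93 TPM in YS line 3 and at 0.82 TPM or less in the other 8 lines, BM lines included, and was not tested. The PDGF receptors Pdgfra and Pdgfrb did not exceed 0.10 TPM in any line.

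Of the 5 FGF receptors, Fgfr1 was at 24.23, 20.10 and 40.68 TPM in BM lines and at 0.03 TPM or less in every YS and FL line, a difference of -4.78 ± 0.26 in both comparisons (adjusted p = 3.9e-05 and 4.6e-05). Fgfrl1, which lacks the kinase domain, was at 4.93 to 8.50 TPM in BM lines, 1.46 to 3.60 TPM in YS lines and 1.67 to 4.25 TPM in FL lines (-1.14 and -1.07, adjusted p = 0.035 and 0.054). These Fgfrl1 calls stood near 2-fold. Both were lost with a pseudocount of 4 and with no filter, and they were lost without YS line 1 or BM line 3 for YS lines, without FL line 2, FL line 3, BM line 2 or BM line 3 for FL lines, and for both without YS line 2 and BM line 2 together. Fgfr2 was listed at 0 in all lines, and Fgfr3 and Fgfr4 did not exceed 0.18 TPM.

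Igf1r, the receptor of IGF1, was also higher in YS and FL lines than in BM lines. The YS lines had 13.59, 6.36 and 5.80 TPM, and the FL lines 4.92, 3.20 and 1.07 TPM. Of the BM lines, line 2 had 1.39 TPM, and both others were listed at 0. YS lines were 2.75 ± 0.50 higher than BM lines (adjusted p = 0.0069), and FL lines 1.48 ± 0.50 higher (adjusted p = 0.074) with overlap through BM line 2. The FL call was lost with a pseudocount of 4, with no filter, and without FL line 1, FL line 2, BM line 1 or BM line 3. Without YS line 2 and BM line 2 both were called (3.32 and 1.90, adjusted p = 0.017 and 0.068). Igf2r, which clears IGF2, ranged from 0.11 TPM in YS line 1 to 64.48 TPM in FL line 1, and Insr, the insulin receptor, from 4.89 to 9.33 TPM, with no call for either. Irs2, an adaptor of these receptors, was lower in YS lines, with 0.04, 7.33 and 2.84 TPM, than in FL lines, with 10.93, 20.51 and 18.20 TPM (-2.40 ± 0.64, adjusted p = 0.066), a call lost with a pseudocount of 0.1, with no filter, with only the 6 libraries of the 2 groups, and without FL line 2, FL line 3 or any 1 BM line. Of the 7 IGF binding proteins only Igfbp4 was tested. YS lines had 510.82, 415.75 and 257.11 TPM and BM lines 37.99, 125.11 and 39.78 TPM. FL lines 1 and 2 had 542.29 and 870.23 TPM but FL line 3 only 0.37 TPM, and the gene was not called in any comparison.

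**Figure D5:**
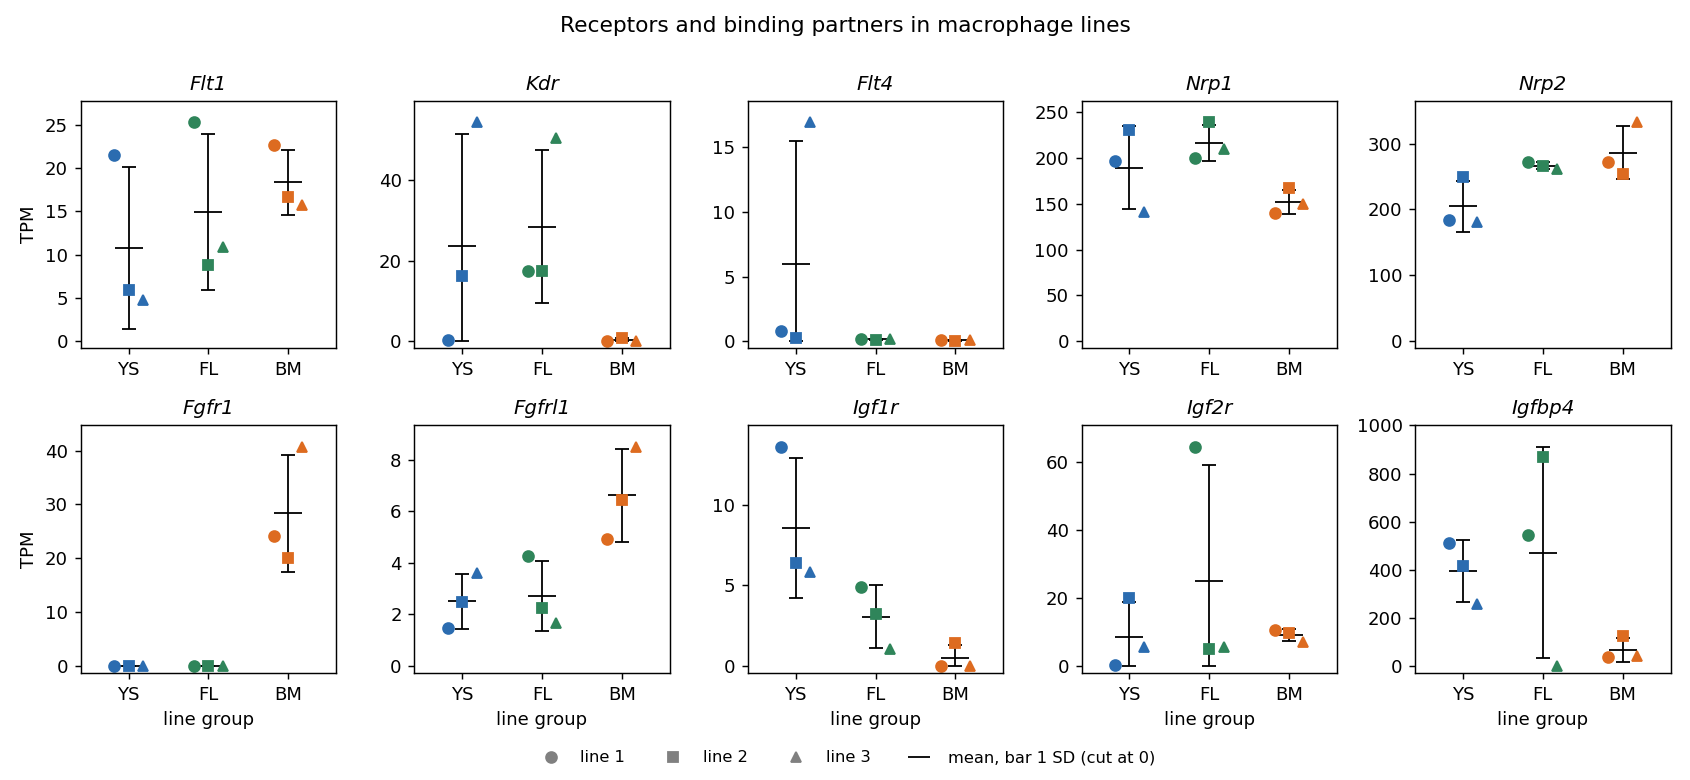
TPM (vertical axis, linear) of VEGF receptors and neuropilins, FGF receptors, IGF receptors and Igfbp4 in 3 YS, 3 FL and 3 BM lines, with means and bars of 1 SD drawn down to 0 at most. Fgfr1 is above 20 TPM in the 3 BM lines and near 0 in the other 6, while Igf1r is lowest in the BM lines and Kdr is under 1 TPM in the BM lines and in YS line 1.

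The other ligands of these families were almost silent. The deposited data held 26 relatives, of which 15 were listed at 0 in all lines, 22 were under 1 TPM in every line, and only Egfl8 was tested, which was not called. Of 9 processing factors, 4 were tested. Furin, a protease that processes VEGF-C and PDGF chains, was at 76.09 to 90.17 TPM in BM lines, 46.74 to 64.86 TPM in YS lines and 36.82 to 57.49 TPM in FL lines, under 2-fold from BM lines in both comparisons (-0.62 and -0.90, adjusted p = 0.038 and 0.011). Plau, the urokinase gene, was called lower in FL than in BM lines (-1.12, adjusted p = 0.075) with overlapping lines, and the call was lost with a replicate block (adjusted p = 0.119), with no filter, without FL line 1, FL line 2, BM line 2 or BM line 3, and without YS line 2 and BM line 2 together. Ccbe1 and Adamts3, which activate VEGF-C outside the cell, were at most at 1.59 TPM and listed at 0 in all lines, respectively.

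Among 18 other angiogenic factors, 8 were tested: 3 were higher and 2 lower in YS than in BM lines, 2 higher and 1 lower in FL than in BM lines, and 1 higher in YS than in FL lines. Over all genes tested, 12.8%, 10.3% and 3.79% were called in the same order. Hgf, a mitogen of epithelium and endothelium, was at 1.86 to 7.37 TPM in YS lines, 2.67 to 8.97 TPM in FL lines, 1.38 TPM in BM line 2 and 0 in the other BM lines (1.82 and 2.28, adjusted p = 0.036 and 0.019). The YS call of Hgf was lost with a pseudocount of 4, with no filter, and without BM line 1 or BM line 3, and without YS line 2 and BM line 2 the YS and FL differences were 1.82 and 2.7 (adjusted p = 0.056 and 0.016). Adm, the vasodilator adrenomedullin, reached 21.21, 3.72 and 6.85 TPM in the YS lines but no more than 1.66 TPM elsewhere, 2.11 higher than in BM lines (adjusted p = 0.017) and 2.87 higher than in FL lines (adjusted p = 0.025), the latter not called with only the 6 libraries of those groups (adjusted p = 0.119). Col18a1, whose collagen releases endostatin, was at 3.61, 24.92 and 48.09 TPM in BM lines and at 0.10 TPM or less in FL lines (-4.07, adjusted p = 0.018). Its YS to BM difference of -2.33 (adjusted p = 0.096) was no longer called in 12 of 19 alternatives, among them those without YS line 1, YS line 3, any 1 FL line, BM line 2 or BM line 3, and without YS line 2 and BM line 2 together. Vash1, an inhibitor of angiogenesis, was at 8.77 to 10.36 TPM in BM lines and 0.05, 2.67 and 4.47 TPM in YS lines (-1.91, adjusted p = 0.030), a call lost with no filter (adjusted p = 0.115). The angiogenin gene Ang, a further call outside the 4 largest, was higher in YS and in FL lines (1.43 and 1.63, adjusted p = 0.018 and 0.013).

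Because Vegfa and Adm are known targets of hypoxia-inducible factors, 25 hypoxia genes were examined, of which 24 were tested. For FL against BM lines 3 were higher and 6 lower, for YS against BM lines 1 was higher and 2 lower, and for YS against FL lines 0 were called in either direction by limma, while 4 of the 24 had an unadjusted p under 0.05. Over all genes tested, 10.3%, 12.8% and 3.79% were called in the same order, so the YS to BM count stood near the share of all genes. The genes lower in FL lines included Ddit4 (-2.63, adjusted p = 0.0017) and the mitophagy receptor Bnip3 (-1.70, adjusted p = 0.0015). Epas1, which encodes HIF-2α, went the other way, at 38.64 to 52.98 TPM in FL lines, 32.93 to 55.62 TPM in YS lines and 12.73 to 19.13 TPM in BM lines (1.50 and 1.37, adjusted p = 0.0029 and 0.0044). P4ha2 was also called higher in FL lines (3.37, adjusted p = 0.096), a call lost in 14 of 19 alternatives, among them the replicate block (adjusted p = 0.136) and those without YS line 2, any 1 FL line or any 1 BM line. Summed over the list, levels were 4092.10 to 4511.13 TPM in FL lines, 4846.64 to 5814.40 TPM in YS lines and 7026.25 to 8116.00 TPM in BM lines, of which the glycolytic genes Aldoa, Ldha and Pgk1 made up 82.4% to 88.5%. The list's median difference was -0.22 for FL lines and -0.16 for YS lines against BM lines, beside 0.09 and 0.11 over all genes tested. The mean of Vegfa was lowest in FL lines and highest in BM lines, though its YS to BM difference was not called. Adm was highest in YS lines. The part of hypoxia in the levels of Vegfa and Adm was not tested.

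For each member called in any comparison, the tested genes most alike over the 9 lines were ranked by Pearson's r of log2(TPM + 1), which describes 9 points that share 3 groups. Closest to Vegfc among the genes reported were Sdc2 and C330024C12Rik (r = 0.996 and 0.993). Sdc2 was at 16.36 to 21.01 TPM in BM lines and at most 0.68 TPM elsewhere. Closest to Igf1 were Ctsc, Rcsd1 and Fcgr3 (0.988, 0.988 and 0.987), of which Ctsc fell from 218.61 TPM or more in every YS and FL line to 5.58 to 71.54 TPM in BM lines. Mbd2, Kitl and Arl3 stood closest to Pdgfb (0.978, 0.973 and 0.973), and Exoc4, Tnfrsf10b and Polk to Fgf11 (0.981, 0.963 and 0.963). Fgf13 was most like Drg1, Tpm1 and Pmaip1 (0.985, 0.984 and 0.981), and Vegfa most like Pole4, Col18a1 and Zmym3 (0.951, 0.943 and 0.939). Egfl7 was most like Rnf220, Mylk and Pear1 (0.993, 0.989 and 0.980), and Mylk and Pear1 also had the order YS line 3, YS line 1, YS line 2, at 15.95, 7.58 and 2.36 TPM and 12.80, 6.61 and 2.50 TPM.

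The nearest tested gene on each side of the called members, in the RefSeq gene order, was also examined. For scale, the share of all tested genes called was 12.8% in the first comparison below, 10.3% in the second and 3.79% in the third. Neighbour calls, in either direction, stood above that share only in the third. With so few neighbours, these counts are a description and were not tested. Of 10 such neighbours between YS and BM lines 0 were called in the member's direction and 1, Nlgn2 beside Fgf11, was called in the opposite one. Of 10 between FL and BM lines 0 were called in either. Neil3 and Spcs3, beside Vegfc, were at 30.64 to 51.86 TPM and 92.75 to 154.33 TPM over all 9 lines. Between YS and FL lines, 1 of 4 was called in the same direction, F9 beside Fgf13 (1.85, adjusted p = 0.0062), and 2 in the opposite one, Notch1 and Agpat2 on either side of Egfl7 (-1.97 and -1.21, adjusted p = 0.013 and 0.036). F9 was at 8.47 to 10.68 TPM in YS lines, 1.55 to 2.61 TPM in FL lines and 3.26 to 5.12 TPM in BM lines, so that it was higher in YS lines than in BM lines, where Fgf13 was not.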

How the data were processed

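RNA-seq was made from 3 YS, 3 FL and 3 BM lines with poly(A) selection and a directional kit, and read as single reads of 75 nt. Per the labels, the submitters' processing notes name Trim Galore 0.6.6, STAR 2.7.9a and RSEM 1.3.3, and the genome build and annotation are not given in the sources used here. The authors deposited TPM, which has the same sum in each library and keeps no depth. The paper's own comparisons started from read counts, which were not used here.

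From the TPM, log2(TPM + 1) was computed, a scale that understates changes of low genes. The 11753 genes that reached 1 TPM in 3 or more of the 9 libraries were tested with limma 3.58.1 in R 4.3.3 (1 model over all 9 libraries, intensity trend, Benjamini-Hochberg adjustment over all of them in each comparison) and called at an FDR under 0.1 and more than 2-fold. All adjusted p-values are from limma. Exact two-sided permutation tests cannot go below p = 0.1 with 3 lines against 3. The fit was tested on simulated data. Members and gene lists were chosen with earlier results of these data known. Named were all members, all receptors of their families, up to 4 called genes of each other list with the largest differences, the 3 genes most alike each called member and its nearest tested neighbours, but 1 gene most alike Vegfc is not reported here. Marker genes, Furin, Ccbe1, Adamts3 and genes named as examples were added to these after their values were seen. Of 24411 symbols 24290 had a match in RefSeq (GRCm38.p6), used for names, chromosome and gene order, and sequences are from RefSeq tables of the same build. Alternatives changed the pseudocount, filter, scaling, trend, libraries fitted, thresholds, replicate block and lines.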

Additional observations from a re-analysis of the deposited data

How the results depend on the processing

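The counts of members called in the comparisons with BM lines were 5 and 5 and stayed within 1.5 times of that under all alternatives run. Between YS and FL lines the count of 2 was 1 with no filter, 1 with at least 5 TPM in at least 3 libraries, and 0 with only the 6 libraries of the 2 groups, and 1 to 2 with each line left out in turn. Line numbers did not pair the lines (r of -0.118 to 0.0878 for 9 same-numbered pairs), and with a replicate block 5, 5 and 2 members and 1503, 1191 and 409 genes were called, against 1504, 1211 and 446, and the calls of Plau and P4ha2 between FL and BM lines were lost. Without the fold threshold 4455, 3247 and 1500 genes were called. Between YS and FL lines the gene count was 280 with a pseudocount of 4, 154 with no filter, 81 with only the 6 libraries, 234 at an FDR under 0.05, and as low as 191 with a line left out. With quantile normalization 47.6% of the genes called between YS and BM lines were higher in YS lines, against 59.2% with TPM as deposited, and the median of all genes went from 0.11 to -0.02. No called difference of a member, or of a listed gene that was recomputed, turned direction in any alternative run. The pseudocount set the size of differences of low genes: for Vegfc between YS and BM lines it was -7.01 with 0.1 and -3.35 with 4.

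With each line left out in turn, differences that were small turned direction: Egfl7 between FL and BM lines (-0.030 to 0.30), Pdgfa between YS and BM lines (-0.89 to 0.037), Vegfb between YS and BM lines (-0.44 to 0.15), between FL and BM lines (-0.22 to 0.083) and between YS and FL lines (-0.38 to 0.22), and, between YS and FL lines, Fgf11 (-0.60 to 0.92), Igf1 (-0.19 to 0.16) and Pdgfb (-0.59 to 0.071). The Fgf11 difference between YS and FL lines was also 0.96 with a pseudocount of 0.1 and 0.22 without YS line 2 and BM line 2, an alternative chosen after seeing the data, and that of Vegfb 0.028 without these lines. None of these was called in either setting. The causes were not tested. Depth is unknown in TPM, so levels near 0 have no stated limit.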
